A study of Homo sapiens with 6 samples.

Results

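The genes described here make and acidify the lysosome. They are 37 of the 57316 gene names in the deposited count files, taken as a list of gene names: 13 lysosomal hydrolases, 3 lumenal cofactors and carriers, 4 lysosomal membrane proteins, 3 transcription factors of the MiT/TFE family, and 6 V0 and 8 V1 subunits of the vacuolar proton pump (V-ATPase). Their transcripts were measured in THP-1, a human monocytic leukaemia cell line, after the phorbol ester PMA at 100 ng/ml for 48 h, which makes these cells adherent and macrophage-like. For the next 24 h they received either 100 ng/ml of recombinant human CXCL10 (3 libraries) or a control solution (3 libraries), and both groups carry the replicate numbers 1, 3 and 4. CXCL10 is a chemokine made in response to interferons, and CXCR3 is its receptor. All 6 libraries thus share the PMA exposure and the same cell line, and no PMA-free or primary macrophage library was part of the comparison. The labels do not say whether replicates came from separate cultures, and p-values here cover the spread between these libraries alone, which may be technical.

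The lysosome degrades material taken up by phagocytosis and endocytosis as well as worn-out parts of the cell, which makes it a prominent organelle of macrophages. Its soluble hydrolases work at acid pH, which the V-ATPase maintains: the V1 sector in the cytosol splits ATP, and the V0 sector in the membrane carries protons into the lumen. TFEB, TFE3 and MITF are related transcription factors that bind E-box elements near lysosomal genes, the so-called CLEAR element. Their activity is controlled largely by phosphorylation and by passage into the nucleus, which transcript counts do not show.

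Library totals ran from 34.8 to 41.02 M reads. Of 9 macrophage and myeloid marker genes, 8 had a mean of at least 1 CPM (the usual depth-scaled read count of a gene), with CSF1R, the receptor of macrophage colony-stimulating factor, at 1461 to 1601 CPM. The ninth, CD68, had 11 reads in all 6 libraries together. As 81.6% of its exon length lies under another annotated gene on the same strand, and reads over several genes were left out, its level could not be read. Summed marker levels of T cells (0.378 to 0.828 CPM) and epithelium (0 to 0.0529 CPM) were at or near 0, with CD2, EPCAM and KRT5 at 0 reads. Those of B cells (1.37 to 2.17 CPM), fibroblasts (1.55 to 2.37 CPM) and endothelium (1.05 to 3.48 CPM) were low, with MS4A1 and LUM at 0 reads. The summed endothelial level of 3 genes, 1 of which had a mean of at least 1 CPM, ran from 1.05 to 2.02 CPM in controls and from 2.27 to 3.48 CPM with CXCL10, and its part in the results was not tested. Control replicate 4 stood apart from the other libraries. It had the lowest scaling factor (0.929), the highest share of even numbers among low counts (75.8%, against 66.8% to 68.0% in the others), and was the highest or the lowest library for 55.1% of all genes tested and for 22 of the 36 tested members (61.1%).

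Promoter sequence was available for 26 of the 37 members in a RefSeq table (GRCh38.p14, 250 bases before to 50 after the gene start), which uses the same reference genome as the hg38 counts. The stretches below are shown because they hold the letters that MiT/TFE factors are known to bind. Capitals mark every CACGTG, the E-box core, with GT before and AC after it where both are present, which makes the palindromic CLEAR element. Each stretch lies before the RefSeq gene start and is read 5′ to 3′ on the strand of the gene.
GAA, chr17:80101493-80101567, plus strand: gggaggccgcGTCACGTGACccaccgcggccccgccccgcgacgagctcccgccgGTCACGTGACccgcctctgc
MCOLN1, chr19:7522571-7522623, plus strand: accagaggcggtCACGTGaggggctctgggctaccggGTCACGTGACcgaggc
ATP6V1G1, chr9:114587699-114587728, plus strand: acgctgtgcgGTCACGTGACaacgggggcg
ATP6V0B, chr1:43974891-43974938, plus strand: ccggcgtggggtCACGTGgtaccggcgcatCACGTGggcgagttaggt
ATP6V0D1, chr16:67481199-67481228, minus strand: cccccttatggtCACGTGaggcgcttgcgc
LAMP1, chr13:113297035-113297228, plus strand: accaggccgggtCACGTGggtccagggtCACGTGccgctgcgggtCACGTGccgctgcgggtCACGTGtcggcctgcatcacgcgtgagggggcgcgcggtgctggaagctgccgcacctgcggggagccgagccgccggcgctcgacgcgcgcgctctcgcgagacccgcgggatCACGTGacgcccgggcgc

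These 6 genes were the members with a match to CACGTG among the 26 promoters (23.1%), and all 6 also matched TCACGTG, which contains CACGTG. LAMP1 held 5 matches, GAA, MCOLN1 and ATP6V0B 2 each, and ATP6V1G1 and ATP6V0D1 1 each. Among the promoters of all genes tested that had an entry, 9.98% of 11029 held CACGTG and 5.77% held TCACGTG. The full palindrome, CACGTG with GT before and AC after it, which contains both shorter motifs, was found in 3 members (11.5%: GAA, MCOLN1 and ATP6V1G1) and in 0.743% of the promoters of genes tested. As the CLEAR element is known from lysosomal genes, its share among these members gives no independent evidence. Both strands were searched at only 1 RefSeq start per gene, and a match describes letters in this window, not binding. By role, a CACGTG match was present in 1 of 12 hydrolase and cofactor promoters, 2 of 3 membrane protein promoters, 3 of 8 V-ATPase promoters and 0 of 3 promoters of the MiT/TFE genes. LAMP2, HEXA, NAGLU, ASAH1, PSAP, ATP6V0D2, ATP6V0E1, ATP6V1A, ATP6V1B2, ATP6V1C1 and ATP6V1H had no entry in the table.

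The lysosomal genes were expressed over a wide range. Per kilobase of annotated exon, the mean over the 6 libraries ran from 2.48 CPM per kb for NPC1, the membrane cholesterol exporter, to 868 CPM per kb for PPT1, the palmitoyl-protein thioesterase that removes fatty acids from lipid-modified proteins. PPT1 alone took 0.441% ± 0.0615 of all counted reads in controls and 0.440% ± 0.0248 with CXCL10 (mean ± SD, n = 3 each), out of 1.14% ± 0.0352 and 1.16% ± 0.0214 for all 37 members together. The saposin precursor PSAP (332 CPM per kb), whose cleavage products assist sphingolipid hydrolases, came next. It was followed by the pump subunits ATP6V1F (197), ATP6V0B (174) and ATP6V0E1 (161) and by NPC2, the lumenal cholesterol carrier (166 CPM per kb). The ranges over the libraries of these last 4 genes overlapped, so their order is not fixed. Exon length was the union over all annotated transcripts, which lowers the per-kilobase value of genes with long or many alternative exons, such as HEXA with 12611 bp or ASAH1 with 15378 bp. For PPT1, 23.4% of that length lies opposite the gene CAP1, and strand was not used in counting.

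**Figure D1:**
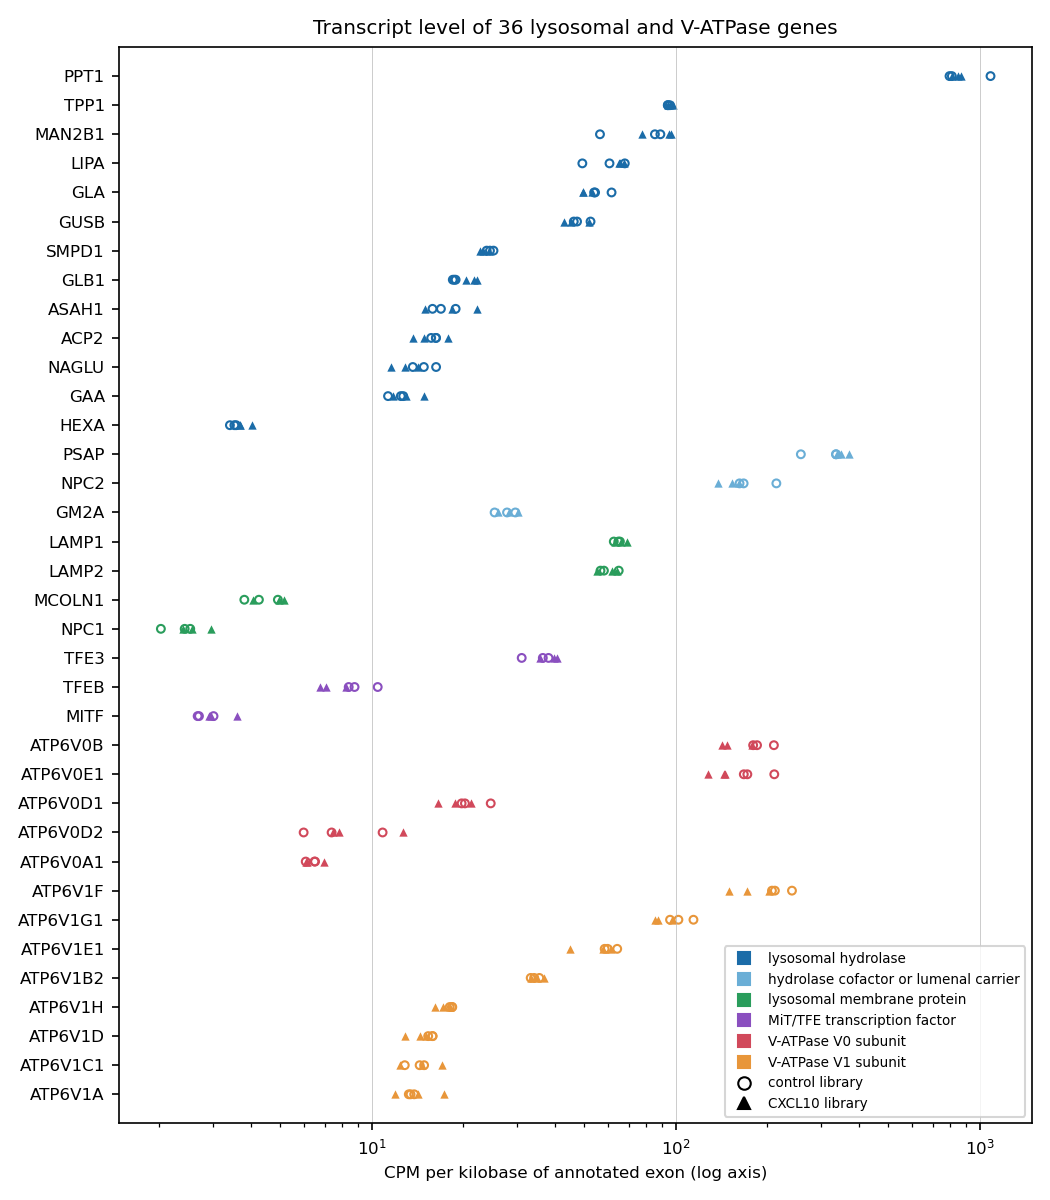
Level of each of the 36 tested members in CPM per kilobase of annotated exon (log axis), with 1 open circle per control library and 1 triangle per CXCL10 library, coloured by role. PPT1 lies far to the right at a mean of 868 CPM per kb, NPC1 and MITF lie at the low end at 2.48 and 2.98 CPM per kb, and for most genes the circles and triangles overlap.

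ATP6V0C, the gene of the proteolipid that forms most of the V0 rotor ring, could not be measured in these files. It had 0 to 9 reads per library, 20 in all, and did not pass the filter on low counts. Its 1416 bp of exon (chromosome 16, 2513952 to 2520218) lie to 76.3% under 2 other annotated genes on the same strand, AC093525.1 and AC093525.2, and both of those also had 0 reads. Reads over several genes had been left out of the counts. In control replicate 4, with 0 reads, a limit of 3 fragments (6 reads, since mates were counted apart) corresponds to 0.167 CPM and covers counting error only. This gene was singled out after its values were seen.

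The comparison of CXCL10 with control asked whether transcripts of this organelle differ after a day with the chemokine. No member passed the test, and the log2 fold changes of all 36 lay between -0.40 and 0.22. The quasi-likelihood test of edgeR, adjusted after Benjamini and Hochberg over all 16531 genes, called 0 of 36 members higher and 0 lower, and 0.0% of all genes in either direction. The lowest adjusted p of a member was 0.683. By role, 8 of 13 V-ATPase subunits had a log2 fold change below 0 (median -0.15), as did 7 of 16 hydrolases and cofactors (median 0.02) and 0 of 4 membrane proteins (median 0.08), while 46.0% of all genes tested were below 0 (median 0.02). All 36 members had a 95% interval of the log2 fold change within -1 to 1, against 74.4% of all genes tested. The members' intervals reached from -0.69 for ATP6V0E1 to 0.71 for ATP6V0D2, so in this fit changes of 2-fold or more lay outside them. These are intervals of single genes without adjustment, and ATP6V0C has none. For ATP6V0D2 the log2 fold change itself was 0.68 by limma-voom with sample quality weights. Fewer cells expressing a gene and less RNA per cell cannot be told apart in bulk RNA.

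At an unadjusted p under 0.05, edgeR counted 4 members, all with lower values in CXCL10 libraries: ATP6V0E1, ATP6V1F, TFEB and ATP6V0B. These are 11.1% of the 36 members, where 7.14% of all genes reached this level (4.65% lower and 2.5% higher). DESeq2 and limma-voom likewise called 0 members after adjustment and counted 4 before it, where 7.33% and 7.15% of all genes were counted. Scaled by library size alone, edgeR counted 1 member lower (ATP6V0E1) and 1 higher (GLB1), where 2.46% and 4.5% of all genes were counted. Without control replicate 4, edgeR counted 1 member lower (ATP6V0E1) and 1 higher (ATP6V0D2), where 3.79% of all genes were counted. ATP6V0E1 alone was counted, as lower, without control replicate 1 (7.14% of all genes), control replicate 3 (9.44%), CXCL10 replicate 3 (3.71%) or CXCL10 replicate 4 (3.79%). Without CXCL10 replicate 1 the same 4 members were counted as with all libraries, where 12.3% of all genes were. All 3 CXCL10 libraries lay below all 3 controls for 7 members and above them for 3, together 27.8%, where 12.2% of all genes tested separated in this way (6.48% below and 5.76% above).

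**Figure D2:**
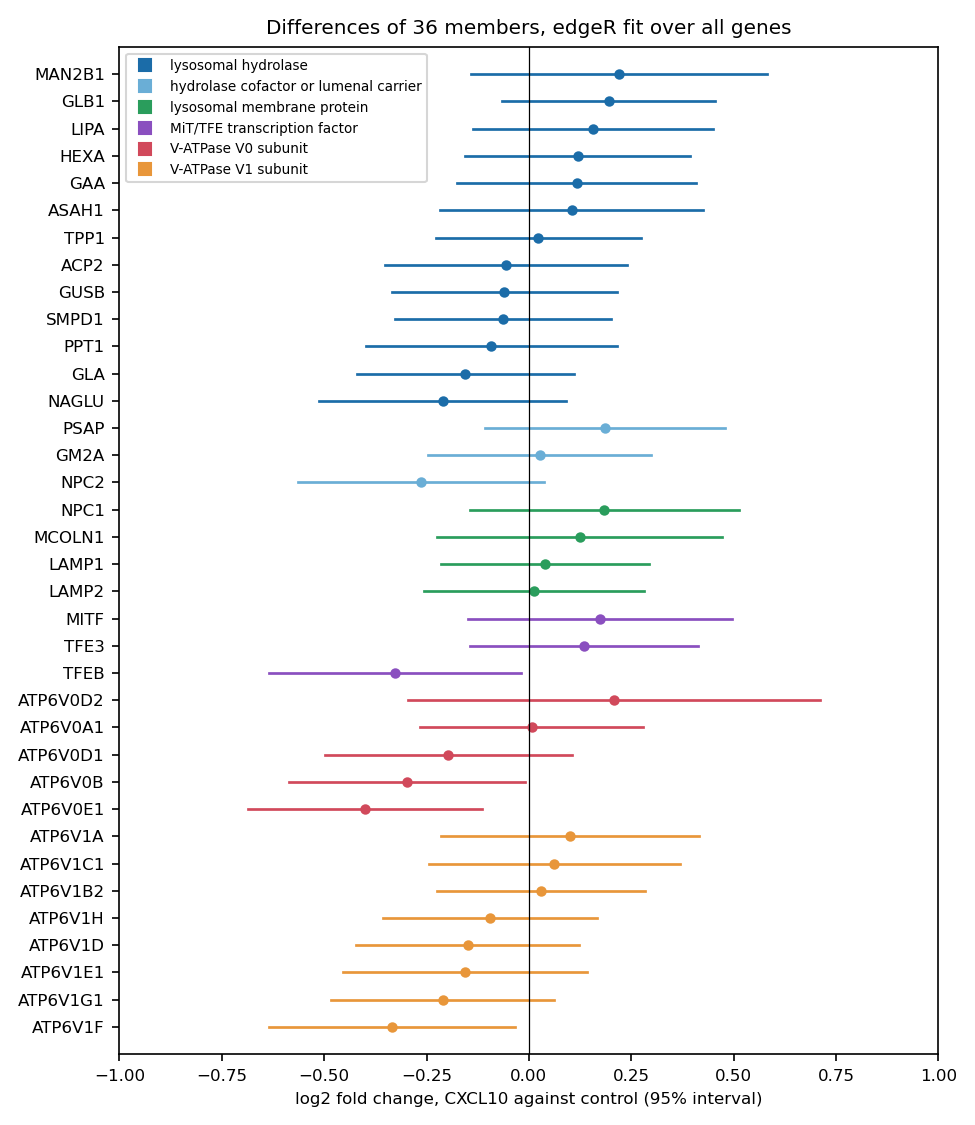
Log2 fold change of CXCL10 against control for the 36 tested members with its 95% interval from the edgeR fit, coloured and ordered by role. The intervals of ATP6V0E1, ATP6V0B, ATP6V1F and TFEB lie below 0 before adjustment for multiple testing, and those of the other 32 members cross 0.

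Among the hydrolases, no member reached an unadjusted p under 0.05, and 7 of 13 had log2 fold changes above 0. PPT1 (chromosome 1, 40071461 to 40097727, hg38) measured 4115, 4043 and 5515 CPM in control replicates 1, 3 and 4 and 4119, 4411 and 4300 CPM in the CXCL10 libraries of the same numbers. The highest value was that of control replicate 4, and the groups overlapped. The log2 fold change (± SE) of PPT1 was -0.09 ± 0.14, with an edgeR adjusted p of 0.906, and 0.07 once control replicate 4 was left out. GLB1, the lysosomal beta-galactosidase (chromosome 3, 32996609 to 33097202), measured 81.8, 80.0 and 81.0 CPM in controls and 96.2, 88.1 and 93.7 CPM with CXCL10. Every CXCL10 library was above every control, and the log2 fold change was 0.20 ± 0.12 (edgeR adjusted p = 0.747), with 0.17 to 0.24 over the fits that left out 1 library each. MAN2B1, the acid alpha-mannosidase (chromosome 19, 12646511 to 12666742), measured 459, 478 and 303 CPM in controls and 516, 417 and 511 CPM with CXCL10. The lowest value was that of control replicate 4, and without it the log2 fold change of 0.22 ± 0.17 (edgeR adjusted p = 0.790) was 0.04. NAGLU, an enzyme of heparan sulfate breakdown (chromosome 17, 42536241 to 42544449), measured 43.5, 40.0 and 47.8 CPM in controls and 41.8, 33.9 and 37.9 CPM with CXCL10, which gave a log2 fold change of -0.21 ± 0.14 with overlapping groups (edgeR adjusted p = 0.765), or -0.14 without control replicate 4 and -0.13 without CXCL10 replicate 3.

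The other 9 hydrolases had log2 fold changes from -0.16 (GLA, the alpha-galactosidase) to 0.16 (LIPA, the lysosomal acid lipase). TPP1, a tripeptidyl peptidase, was among the steadiest members, at 615 ± 5.29 CPM in controls (n = 3) and 625 ± 11.2 CPM with CXCL10 (n = 3). LIPA measured 290 ± 46.0 and 323 ± 5.97 CPM, with control replicate 4 at 241 CPM beside 296 and 332 CPM in the other controls. GLA had all 3 CXCL10 libraries (121, 113 and 113 CPM) below the controls (123, 123 and 140 CPM). HEXA, the alpha subunit of beta-hexosaminidase, had all 3 above them, at 51.1, 46.5 and 46.6 CPM against 45.1, 44.5 and 43.0 CPM. Other annotated genes cover 16.3% of the exon length of HEXA and 13.9% of that of TPP1. GAA, the acid alpha-glucosidase, GUSB, the beta-glucuronidase, SMPD1, the acid sphingomyelinase, ASAH1, the acid ceramidase, and ACP2, an acid phosphatase, overlapped between the groups, with log2 fold changes from -0.06 to 0.12.

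The 3 lumenal cofactors and carriers differed from each other in direction, and none passed the test. NPC2 (chromosome 14, 74476192 to 74494177) measured 459, 445 and 589 CPM in controls and 444, 380 and 420 CPM with CXCL10. The groups did not overlap, but CXCL10 replicate 1 lay just below control replicate 3, and the log2 fold change of -0.26 ± 0.14 (edgeR adjusted p = 0.712) was -0.12 without control replicate 4. PSAP (chromosome 10, 71816298 to 71851325) measured 1072, 1074 and 822 CPM in controls and 1180, 1084 and 1113 CPM with CXCL10. Here too the groups did not overlap, with control replicate 4 the lowest library, and the log2 fold change of 0.19 ± 0.14 (edgeR adjusted p = 0.776) was 0.07 without it. GM2A, the activator that presents the ganglioside GM2 to beta-hexosaminidase, had 124.7, 113.5 and 132.8 CPM in the controls and 135.2, 116.1 and 126.5 CPM after CXCL10, and the groups overlapped.

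The 4 membrane proteins had log2 fold changes from 0.01 to 0.18 and none separated the groups. LAMP1 and LAMP2, the abundant glycoproteins of the lysosomal membrane, were close to each other in level, at 65.1 and 60.1 CPM per kb. LAMP1 (chromosome 13, 113297239 to 113323672) measured 371, 376 and 359 CPM in controls and 397, 361 and 378 CPM with CXCL10, which gave a log2 fold change of 0.04 with a 95% interval from -0.21 to 0.29. LAMP2 measured 330 ± 24.7 and 333 ± 26.0 CPM (n = 3 each). NPC1 (chromosome 18, 23506184 to 23586506) measured 23.5, 24.5 and 19.6 CPM in controls and 23.3, 24.8 and 28.8 CPM after CXCL10, and MCOLN1, the lysosomal calcium channel mucolipin 1 (chromosome 19, 7522624 to 7534009), measured 19.4, 16.8 and 15.1 CPM and 20.3, 16.1 and 19.6 CPM. Both had control replicate 4 as the lowest library, overlapping groups, and log2 fold changes of 0.18 ± 0.15 and 0.12 ± 0.16 (edgeR adjusted p = 0.807 and 0.882). Without control replicate 4 these were 0.10 and 0.04, and NPC1 was 0.09 without CXCL10 replicate 4 or with the length trend removed. MCOLN1 was 0.06 without CXCL10 replicate 1 and 0.23 without control replicate 1 or CXCL10 replicate 3.

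Of the 3 MiT/TFE factors, TFE3 was the most abundant, at 36.97 CPM per kb, above TFEB at 8.27 and MITF at 2.98 CPM per kb, and the ranges of the 3 genes over the libraries did not overlap. TFEB (chromosome 6, 41683978 to 41736259) measured 49.5, 47.4 and 59.0 CPM in controls and 46.4, 38.1 and 39.9 CPM with CXCL10. The groups did not overlap, though CXCL10 replicate 1 came within 1.06 CPM of control replicate 3. The log2 fold change was -0.33 ± 0.14 (edgeR adjusted p = 0.684), -0.22 without control replicate 4 and -0.38 with the trend over gene length removed. TFE3 (chromosome X, 49028726 to 49043410) measured 154, 160 and 131 CPM in controls and 171, 150 and 167 CPM after CXCL10, and MITF (chromosome 3, 69739435 to 69968337) measured 19.2, 19.4 and 21.6 CPM and 20.9, 25.8 and 21.3 CPM. Both overlapped between the groups, with log2 fold changes of 0.13 ± 0.13 and 0.17 ± 0.15 (edgeR adjusted p = 0.839 and 0.809). TFE3 was 0.06 without control replicate 4 and 0.21 without control replicate 3, and MITF was 0.08 without CXCL10 replicate 3 and 0.09 with the length trend removed. Per kilobase, the ratio of TFE3 to TFEB was 4.16, 4.54 and 2.98 in controls and 4.95, 5.28 and 5.63 with CXCL10. This ratio restates the values of both genes above, was lowest in control replicate 4 and was not tested.

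**Figure D3:**
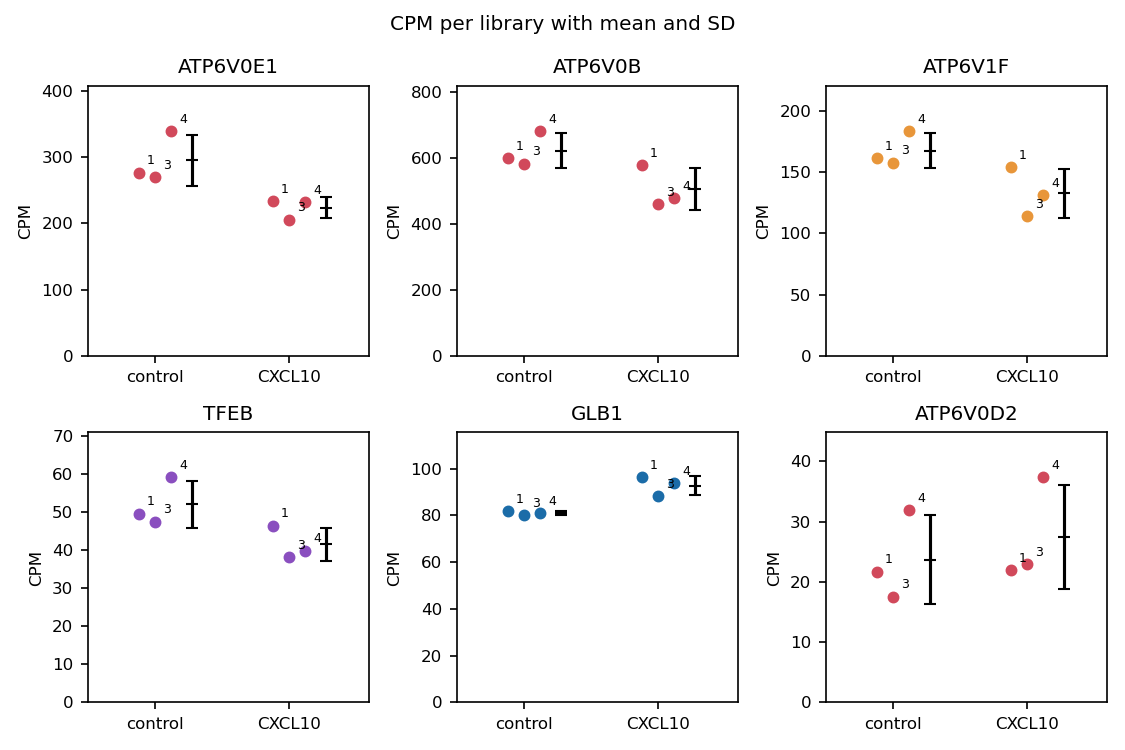
CPM in each library for the 4 members with an unadjusted p under 0.05 by edgeR and for GLB1 and ATP6V0D2, with replicate numbers beside the points and the mean and SD (n = 3) in black on axes from 0. In ATP6V0E1, ATP6V0B, ATP6V1F and TFEB every CXCL10 point is below every control point and control replicate 4 is the highest. In GLB1 every CXCL10 point is above, and in ATP6V0D2 the groups overlap.

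In the V0 sector, the membrane subunits ATP6V0E1 and ATP6V0B stood below the controls and the others overlapped. ATP6V0E1, a small membrane subunit (chromosome 5, 172983771 to 173035445), measured 276, 269 and 339 CPM in controls and 233, 205 and 232 CPM with CXCL10. The groups did not overlap, and the log2 fold change was -0.40 ± 0.13, the lowest of all members (unadjusted p = 0.00939, adjusted p = 0.683 by edgeR). It was -0.28 without control replicate 4, -0.25 with the length trend removed and -0.19 with both, and its unadjusted p in those edgeR fits was 0.0402, 0.0571 and 0.142. ATP6V0B, a proteolipid of the rotor ring (chromosome 1, 43974487 to 43978295), measured 599, 582 and 681 CPM in controls and 578, 460 and 478 CPM with CXCL10. CXCL10 replicate 1 lay just below control replicate 3, and the log2 fold change was -0.30 ± 0.13 (edgeR adjusted p = 0.687), or -0.22 without control replicate 4. ATP6V0A1, an alternative form of subunit a, which forms part of the proton path, measured 69.5 ± 2.73 and 69.9 ± 5.40 CPM (n = 3 each). TCIRG1, a form outside the members that is described further below, was higher, at 538 ± 45.1 and 478 ± 42.0 CPM.

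ATP6V0D1 and ATP6V0D2 encode alternative forms of the subunit at the base of the central stalk, and the latter is known for its high expression in osteoclasts and some macrophages. Per kilobase, ATP6V0D1 was 1.48 to 3.39 times as abundant as ATP6V0D2 within a library. ATP6V0D1 (chromosome 16, 67438014 to 67481181) measured 161, 165 and 201 CPM in controls and 172, 134 and 153 CPM with CXCL10, which gave a log2 fold change of -0.20 ± 0.14 (edgeR adjusted p = 0.773), or -0.09 without control replicate 4 and -0.10 without CXCL10 replicate 3. ATP6V0D2 (chromosome 8, 85987323 to 86154225) measured 21.7, 17.5 and 31.9 CPM in controls and 21.98, 22.9 and 37.3 CPM with CXCL10, and its fold change had the largest SE of the tested members. In each group the library numbered 4 was the highest. The log2 fold change was 0.21 ± 0.23 (edgeR adjusted p = 0.862), which was 0.48 without control replicate 4, 0.05 without control replicate 3 and -0.08 without CXCL10 replicate 4. By limma-voom with sample quality weights it was 0.68, with an adjusted p of 0.0643. Of its exon length, 17.1% lies opposite the annotated gene AC023194.3.

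In the V1 sector, 5 of 8 subunits had log2 fold changes below 0 (median -0.12). ATP6V1F, a subunit of the central stalk (chromosome 7, 128862856 to 128865847), measured 161, 158 and 184 CPM in controls and 154, 114 and 131 CPM with CXCL10. The groups did not overlap, and the log2 fold change was -0.33 ± 0.14 (edgeR adjusted p = 0.683), -0.26 without control replicate 4 and -0.14 with the length trend removed. Its 762 bp of exon are the shortest of the members, and 20.6% of them lie opposite the gene KCP. ATP6V1D, also of the central stalk (chromosome 14, 67294371 to 67360265), measured 65.1, 67.3 and 67.2 CPM in controls and 54.8, 61.3 and 63.8 CPM with CXCL10, again without overlap, at -0.15 ± 0.13 (edgeR adjusted p = 0.807), or -0.09 without CXCL10 replicate 1. ATP6V1G1, a subunit of the peripheral stalks (chromosome 9, 114587769 to 114598879), measured 171, 182 and 204 CPM and 153, 156 and 173 CPM, at -0.21 ± 0.13 (edgeR adjusted p = 0.744), or -0.13 without control replicate 4 and -0.07 with the length trend removed.

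The subunits that split ATP had log2 fold changes near 0, at 0.10 for ATP6V1A and 0.03 for ATP6V1B2. ATP6V1A, the catalytic subunit, averaged 68.9 ± 1.44 CPM in the controls and 73.9 ± 13.6 CPM after CXCL10, and ATP6V1B2, its partner in the hexamer that splits ATP, 268 ± 8.87 and 273 ± 12.5 CPM (n = 3 each). ATP6V1C1 measured 82.0 ± 6.18 and 85.6 ± 13.5 CPM. ATP6V1A and ATP6V1C1 were lowest in CXCL10 replicate 1 and highest in CXCL10 replicate 3, so their spread was wider with CXCL10 than in controls. ATP6V1E1, a peripheral stalk subunit, was also lowest in CXCL10 replicate 1, at 141 CPM beside 192 and 181 CPM, with 191 ± 9.58 CPM in controls. ATP6V1H, a regulatory subunit, measured 93.2 ± 0.991 and 87.3 ± 5.004 CPM.

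Summed over subunits, V-ATPase transcripts took 0.219%, 0.221% and 0.232% of all reads in control replicates 1, 3 and 4 and 0.207%, 0.205% and 0.211% with CXCL10. The groups did not overlap. By sector, V0 took 0.115% ± 0.00701 and 0.100% ± 0.00722, and V1 0.109% ± 0.00229 and 0.107% ± 0.00736 (n = 3 each). In TMM-scaled CPM the pump sum averaged 2307 and 2024. Within it, ATP6V0B had 620 and 505, ATP6V0E1 294.9 and 223.5, and ATP6V1F 168 and 133 CPM. Of the 13 tested subunits, 5 had log2 fold changes above 0. The share of the hydrolases and cofactors was 0.818% ± 0.0318 in controls and 0.854% ± 0.0206 with CXCL10, but on the TMM-scaled CPM used elsewhere the order was the other way, at 8422 ± 672.8 and 8318 ± 18.7 CPM. Without PPT1 the shares were 0.392%, 0.395% and 0.342% in controls and 0.420%, 0.412% and 0.413% with CXCL10. These shares did not overlap between the groups, while the same sums in CPM did, at 3943, 3968 and 3684 against 4178, 3916 and 4031 CPM. Control replicate 4 was highest for PPT1 and lowest for the sum of the rest. The membrane proteins took 0.0722%, 0.0734% and 0.0698% of reads in controls and 0.0749%, 0.0782% and 0.0800% with CXCL10, without overlap. Their sums in CPM overlapped, at 726.7, 737.7 and 752.1 against 744.9, 743.6 and 780.5 CPM.

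**Figure D4:**
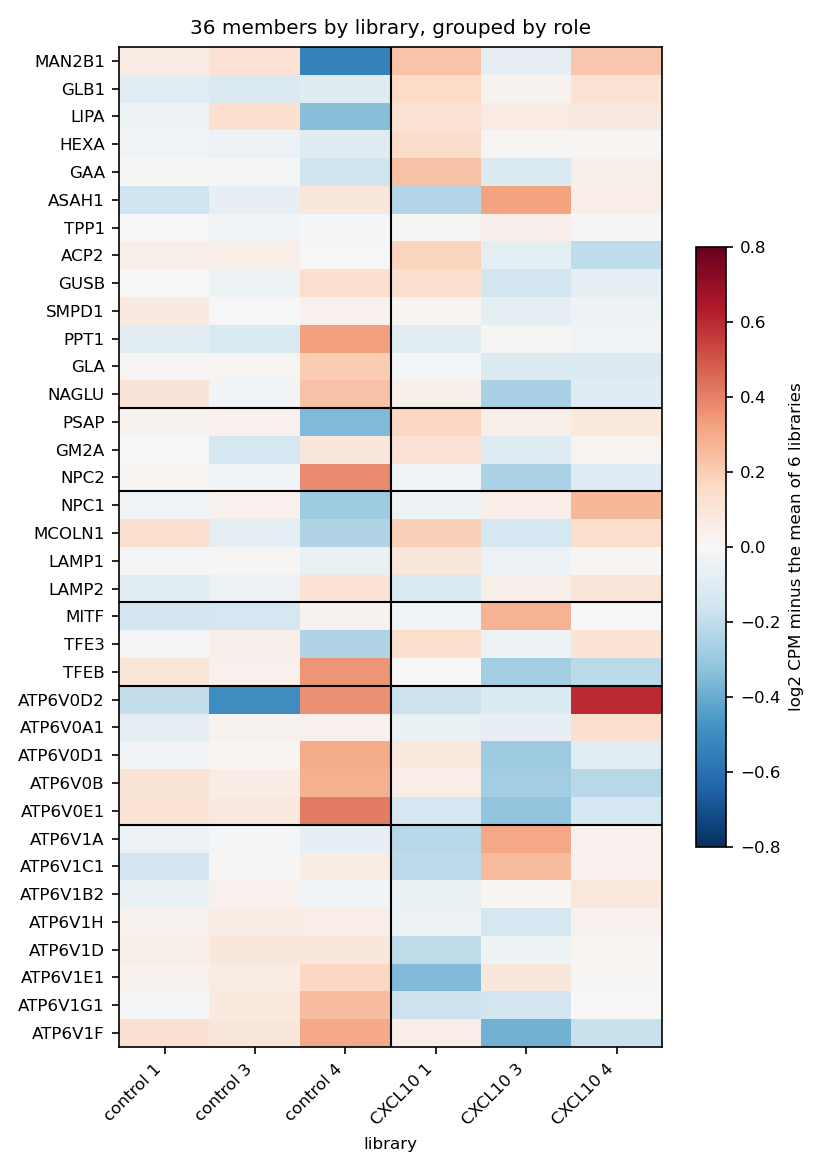
Log2 CPM of each tested member in each library minus its mean over the 6 libraries, with members in rows grouped by role and libraries in columns (red higher, blue lower). Control replicate 4 holds the highest or lowest value of 22 of the 36 rows, with high values for PPT1, NPC2, TFEB, ATP6V0B and ATP6V0E1 and low values for MAN2B1, LIPA and PSAP.

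The members that differed in direction also differed in length. Of the 18 members with less exon length than the members' median of 4685 bp, 12 had log2 fold changes below 0 (median -0.11), and of the 18 longer ones 4 did (median 0.05). The same held over all genes tested, with medians of -0.06 for 8723 genes shorter than 4685 bp and 0.09 for 7807 longer ones. Spearman's rho between exon length and log2 fold change was 0.43 across the 36 members and 0.32 across all 16531 genes tested, given as a description, since genes share the same 6 libraries. Without control replicate 4 it was 0.52 and 0.26. With each library's trend over length removed, rho was 0.17 across the members, and the V-ATPase median of -0.15 was -0.12, or -0.07 without control replicate 4 as well. TFEB, with 5648 bp, was then the only member with an unadjusted p under 0.05 by edgeR, where 5.73% of all genes were, and with control replicate 4 also left out it was ATP6V0D2 alone, where 3.45% were. The part of length in these differences was not otherwise tested.

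**Figure D5:**
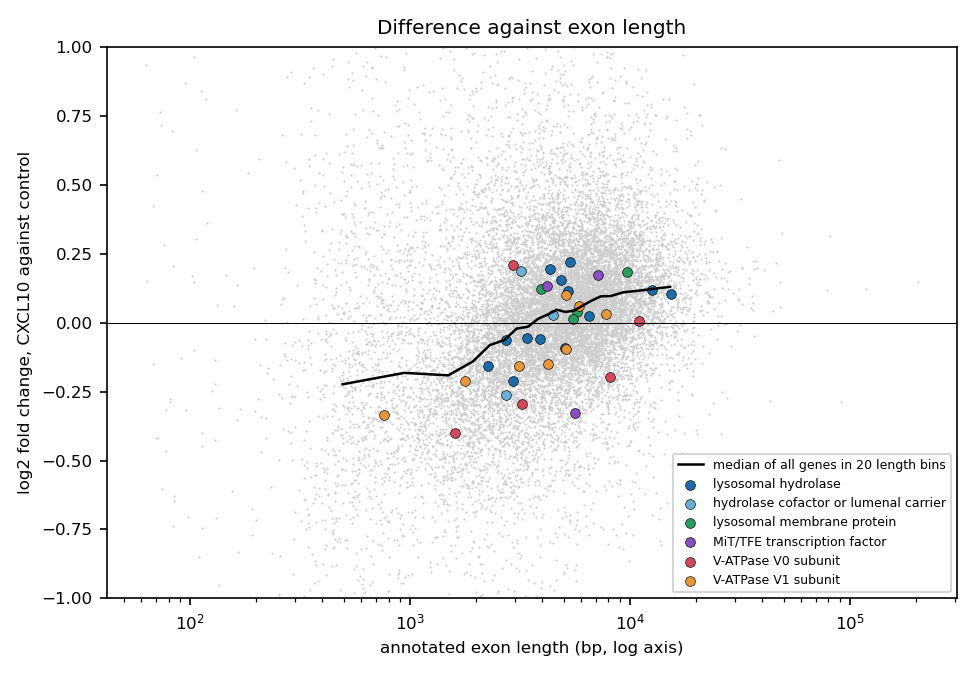
Log2 fold change of CXCL10 against control over annotated exon length (log axis) for all genes tested (grey, 266 genes outside -1 to 1 not drawn), their median in 20 length bins (line) and the 36 members (coloured by role). Short members such as ATP6V1F and ATP6V0E1 lie below 0 where the line is also below 0, and TFEB lies below the line.

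Log2 fold changes of either sign were found among members with and without a CACGTG in the promoter window. The median log2 fold change was -0.08 for the 6 with a match, with 3 above and 3 below 0, and -0.06 for the 19 tested members with an entry and no match, with 9 above and 10 below. The 3 genes with the full CLEAR palindrome shown above, GAA, MCOLN1 and ATP6V1G1, had log2 fold changes of 0.12, 0.12 and -0.21.

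Among other genes of the organelle, 0 of 75 tested genes in 5 lists passed edgeR's adjusted test. At an unadjusted p under 0.05 edgeR counted 4 of these 75 lower and 2 higher, shares near the 4.65% and 2.5% counted among all genes. Of 12 genes of the Ragulator complex, Rag GTPases and folliculin partners, which place mTORC1 on the lysosome and so control TFEB, 11 were below 0 (median -0.16), against 46.0% of all genes, and 3 had an unadjusted p under 0.05, against 7.14%. LAMTOR2 measured 140, 136 and 198 CPM in controls and 133, 101 and 105 CPM with CXCL10, which gave a log2 fold change of -0.49 ± 0.17, LAMTOR4 had -0.58 ± 0.22, and LAMTOR5, named after its value was seen, -0.37 ± 0.15 (edgeR adjusted p = 0.683 for each). Control replicate 4 was the highest library for all 3. For LAMTOR2 and LAMTOR4 the values without it were -0.29 and -0.24. LAMTOR2, LAMTOR4 and LAMTOR5 are short, with 1438, 1936 and 2388 bp of exon, and all genes tested under 4685 bp had a median of -0.06. That median also takes in longer genes than these. For the members ATP6V0E1 and ATP6V1G1, with 1609 and 1788 bp, removing the length trend moved the log2 fold change from -0.40 to -0.25 and from -0.21 to -0.07. Of LAMTOR4 and LAMTOR5, 18.39% and 17.5% of the exon length lies opposite C7orf43 and LAMTOR5-AS1.

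Of 11 genes that sort hydrolases by mannose 6-phosphate, 9 were above 0 (median 0.06), where 8934 of all 16531 genes tested were (median 0.02). IGF2R, the large mannose 6-phosphate receptor, measured 218, 235 and 180 CPM in controls and 249, 257 and 280 CPM with CXCL10, which gave a log2 fold change of 0.31 ± 0.13 (edgeR adjusted p = 0.683). It was 0.22 without control replicate 4, 0.19 with the length trend removed and 0.09 with both. M6PR, the small receptor, had 0.45 ± 0.22 (edgeR adjusted p = 0.702), or 0.19 without control replicate 4 and 0.69 without control replicate 3, and 30.9% of its exon length lies opposite the gene PHC1. Among 20 other lysosomal membrane proteins 16 were above 0 (median 0.11), beside the same 8934 of 16531 genes. All genes tested with more than 4685 bp of exon had a median of 0.09. CLCN7, the chloride-proton exchanger, had 0.53 ± 0.24, or 0.26 without control replicate 4, and HGSNAT, an acetyltransferase of heparan sulfate breakdown, had 0.25 ± 0.14 (edgeR adjusted p = 0.684 and 0.713). Of the 7623 bp of exon of CLCN7, 17.15% lies opposite other annotated genes. HGSNAT was 0.15 without control replicate 4, 0.16 with the length trend removed and 0.07 with both. The 24 other hydrolases had a median of 0.00, with RNASET2, a lysosomal ribonuclease, at -0.59 ± 0.22 and SIAE, a sialic acid esterase, at 0.25 ± 0.12 (edgeR adjusted p = 0.683 and 0.702). RNASET2 measured 312 CPM in control replicate 4 against 128 to 171 CPM in the other 5 libraries, and without that library its value was -0.20. SIAE was 0.16 with the length trend removed, and 43.11% of its exon length lies opposite other annotated genes. Of 12 other pump genes 8 were tested (median 0.01), and TCIRG1, an alternative V0 subunit a, had the lowest p, at -0.17 ± 0.13 (edgeR adjusted p = 0.783), followed by ATP6V1C2 at 0.15 ± 0.15 (edgeR adjusted p = 0.844). Without control replicate 4 these were -0.10 and 0.06.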

How the data were processed

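Polyadenylated RNA of 6 libraries was sequenced, per the labels. The deposited files hold raw read counts per gene name, which the authors counted over GENCODE 30 exons by featureCounts 2.0.6, per the file headers; Trim Galore, STAR, Subread and hg38 are named in the submitters' processing notes, with aligner versions not given in the sources used here. Both mates were counted apart, strand was not used, and reads over several genes or places were left out.

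Counts were tested here with edgeR 4.0.16 in R 4.3.3: filterByExpr, TMM factors, a quasi-likelihood fit on group over all 6 libraries, Benjamini-Hochberg adjustment over 16531 genes and a threshold of 0.05. CPM values used TMM-scaled totals; shares used all reads. The test was checked on simulated counts. There it recovered 10 of 50 genes changed 1.5-fold and 34 of 50 changed 2-fold, and it called 8 unchanged genes. Most changes of 1.5-fold were thus missed. Alternatives with DESeq2 1.42.0 and limma 3.58.1 and others are given in the closing section. The length trend was removed by a smooth fit per library.

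Values per library are given for the 3 MiT/TFE factors, both ATP6V0D forms, and per role the most abundant member per kilobase and up to 3 members with the lowest p. From each other list the 2 genes with the lowest p are named, most of them without values per library. Further members were named after their values were seen. Members and lists were chosen with earlier results of these data known. The main fit did not pair libraries by replicate number, and whether equal numbers mark pairs is not known.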

Additional observations from a re-analysis of the deposited data

How the results depend on the processing

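No member passed an adjusted p of 0.05 in the main analysis or in any of the 18 alternatives. Over all genes, 0 passed in the main analysis, 137 with no filter on low counts and 42 by limma-voom with sample quality weights, where the lowest adjusted p of a member was 0.313 and 0.0643, the latter for ATP6V0D2, higher at 0.68. With no filter, RNASET2 and LAMTOR4 of the other lists passed (adjusted p = 0.0241 and 0.0298 by edgeR). Members at an unadjusted p under 0.05 numbered 4 in the main analysis (7.14% of all genes), 6 by limma-voom with quality weights (18.3%; ATP6V0D2 and GLB1 higher, 4 lower), 2 by library size only (6.96%), 1 with the length trend removed (5.73%), 1 with that and control replicate 4 left out (3.45%; chosen after seeing the data), and 1 to 4 with 1 library left out (3.71% to 12.3%). By library size only, the medians of hydrolases and cofactors and of membrane proteins were 0.10 and 0.16, where that of all genes was 0.10 in place of 0.02. Over all fits the V-ATPase median stayed below 0, from -0.20 to -0.07. Of the 30 genes that the naming rule picked and that were recomputed in each alternative, 26 kept their sign throughout. PPT1 was 0.041 by limma-voom with quality weights and 0.050 with the length trend removed and control replicate 4 left out, and ran from -0.16 to 0.072 (without control replicate 4) with 1 library left out. LAMP1 was -0.011 with the length trend removed and -0.010 with control replicate 4 also left out. With 1 library left out, ATP6V0D2 ran from -0.079 (without CXCL10 replicate 4) to 0.48, and was 0.53 with the length trend removed and control replicate 4 left out. GM2A ran from -0.028 (without CXCL10 replicate 1; -0.016 without control replicate 3) to 0.090. The cause was not tested. With the replicate block, 0 genes passed and 3 members had an unadjusted p under 0.05, where 8.0% of all genes did. Same-numbered libraries correlated in their deviations from the group mean at 0.03, 0.02 and -0.05. With 3 libraries per group, such values cannot decide whether equal numbers mark pairs. Each tested member had 504 or more reads in every library.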
